A study of Mus musculus with 18 samples.

Results

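The messages described here are 10 of the 13 protein-coding messages that mouse mitochondrial DNA carries: mt-Nd1, mt-Nd2, mt-Nd4, mt-Nd5, mt-Nd6, mt-Cytb, mt-Co1, mt-Co2, mt-Co3 and mt-Atp6. They were chosen by name, as the genes of the polysome count table whose Ensembl identifier carries 1 of these symbols in GENCODE M21, and they are 10 of the 51467 genes in that table. The study asked how translation and message stability are connected in mouse embryonic stem cells (ESCs), and used several assays. The part used here shows how messages are distributed over ribosome fractions with and without microRNAs. Wild-type (WT) ESCs of the V6.5 line were compared with Dgcr8 knockout (KO) ESCs, an established line that cannot process primary microRNA transcripts. Both genotypes received cycloheximide (100 ug/ml for 2 min), which holds cytosolic ribosomes on messages, before lysates were spun through 10 to 50% sucrose. From each of 3 gradients per genotype, RNA was sequenced from the monosomes, the low polysomes (2 to 4 ribosomes) and the high polysomes (4 or more), so that there were 6 groups of 3 libraries. All groups grew in medium with LIF, the inhibitor pair called 2i and 15% serum. Nothing in the labels says that the 3 gradients of a genotype came from separate clones or cultures, so p-values measure only the spread between these gradients.

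Mitochondrial DNA is transcribed inside the organelle from both strands as long precursors, which are cut at the tRNAs that punctuate them, and most of the resulting messages receive a short poly(A) tail. In several messages this tail completes a stop codon of which the DNA encodes only the beginning. The messages are translated by the mitochondrial ribosome, not by the cytosolic ribosomes whose number per message defines polysome fractions. Their products are core subunits of the respiratory chain: mt-Nd1, mt-Nd2, mt-Nd4, mt-Nd5 and mt-Nd6 belong to complex I (NADH dehydrogenase), mt-Cytb to complex III, mt-Co1, mt-Co2 and mt-Co3 to complex IV (cytochrome c oxidase), and mt-Atp6 to the ATP synthase.

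The last 30 annotated bases of each message are shown because the libraries (QuantSeq 3′ FWD) are primed on poly(A) and read the 3′ end. These are ends of coding sequences. Whether each message, mt-Nd6 included, carries a poly(A) tail, and whether the tail starts there, was not tested. Past the end of mt-Nd5 the nearest tRNA gene (14071 to 14139) lies on the minus strand. No minus-strand tRNA gene adjoins the end of mt-Nd6 at 13552. The end of mt-Co1 at 6872 likewise meets a tRNA gene (6870 to 6938) of the minus strand, and mt-Atp6 ends at 8607, the first base of mt-Co3. Capitals mark the stop codon, or the single base of it that the DNA encodes. Sequences are GENCODE M21 transcripts on GRCm38, written 5′ to 3′ in message sense, and all 10 lie wholly in the single exon and coding sequence of their gene.
mt-Nd1 (chrM:3678-3707, plus strand): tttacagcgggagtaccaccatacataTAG
mt-Nd2 (chrM:4922-4951, plus strand): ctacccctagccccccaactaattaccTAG
mt-Nd4 (chrM:11515-11544, plus strand): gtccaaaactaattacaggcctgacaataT
mt-Nd5 (chrM:13536-13565, plus strand): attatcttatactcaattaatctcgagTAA
mt-Nd6 (chrM:13552-13581, minus strand): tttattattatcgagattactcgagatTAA
mt-Cytb (chrM:15259-15288, plus strand): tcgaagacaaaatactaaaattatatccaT
mt-Co1 (chrM:6843-6872, plus strand): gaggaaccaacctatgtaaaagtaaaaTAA
mt-Co2 (chrM:7667-7696, plus strand): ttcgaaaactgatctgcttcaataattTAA
mt-Co3 (chrM:9361-9390, plus strand): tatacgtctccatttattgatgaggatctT
mt-Atp6 (chrM:8578-8607, plus strand): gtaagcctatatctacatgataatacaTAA
On the plus strand of chrM the complex I genes run from 2751 to 3707 (mt-Nd1), 3914 to 4951 (mt-Nd2) and 10167 to 11544 (mt-Nd4), and mt-Cytb from 14145 to 15288. The complex IV genes run from 5328 to 6872 (mt-Co1), 7013 to 7696 (mt-Co2) and 8607 to 9390 (mt-Co3), and mt-Atp6 from 7927 to 8607. The annotated ends of mt-Nd4, mt-Cytb and mt-Co3 hold 1 base of a stop codon. mt-Nd6 is the only message of the 10 on the minus strand. Its gene (13552 to 14070) overlaps the end of mt-Nd5 (11742 to 13565) on the other strand, and counting was stated to use strand.

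The libraries held 1151649 to 4984833 counted reads each, fewest in the monosomes of WT (1151649 to 1578231). No 2 libraries of a group agreed within sampling noise: chi-square per gene was 2.01 to 7.99 over genes with 20 or more counts. Reads of Dgcr8 were present in all 18 libraries (38 to 251), and were fewer relative to the total in KO than in WT monosomes (log2 change -0.56, SE 0.19, adjusted p = 0.0185). Reads at the 3′ end of a gene do not check a deletion elsewhere in it. The 8 ESC markers summed to 2316 to 5101 CPM (counts scaled to a common library total), highest in WT high polysomes (4580 to 5101) and lowest in KO high polysomes (2316 to 3015). The 5 fibroblast markers to 1.94 to 20.9 CPM and the 5 primitive endoderm markers to 0.821 to 8.42 CPM.

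Of the 10 messages, 7 were counted in every library and 3 were nearly absent from the table. mt-Co2, which encodes a copper-binding subunit of cytochrome c oxidase, had 0 reads in all 18 libraries. A count of 0 allows up to 3 counts, which is 0.602 to 2.60 CPM depending on the library and covers counting error only. mt-Atp6 had 5 reads in all (at most 2 in 1 library) and mt-Co3 had 2. At the other end, mt-Co1 had 495 to 9283 reads per library and mt-Cytb 545 to 8877. The low counts therefore did not follow the complex: mt-Co1 and mt-Co2 encode subunits of the same enzyme.

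The 3 uncounted messages have identical copies in annotated nuclear genes. Reads were kept by the authors only where they aligned to a single place in the genome, so each message was split into windows of 50 bases, the read length, and each window was searched for in all annotated transcripts of nuclear chromosomes on either strand. All 635 windows of mt-Co2 occurred in such a transcript, as did 734 of 735 windows of mt-Co3 and 629 of 632 of mt-Atp6. The copies are the unprocessed pseudogenes Gm28661 (681 bases, chr1:24614885-24615565), Gm28437 (783 bases, chr1:24613189-24613971) and Gm10925 (678 bases, chr1:24613974-24614651), on the minus strand, which matched mt-Co2, mt-Co3 and mt-Atp6 without a difference over those lengths. These copies were themselves hardly counted, with 9, 9 and 5 reads over the 18 libraries.

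The counted messages shared less, though mt-Nd4, mt-Co1 and the end of mt-Nd2 were also shared in part or whole. mt-Nd1, mt-Nd6 and mt-Cytb had no shared window at all. mt-Nd5 shared 7.61% of its windows, 5 of them among the 251 windows of its last 300 bases. mt-Nd2 shared 8.19% of its windows, and 80 of these 81 lay in its last 300 bases (31.9% of 251). mt-Nd4 shared 62.2%, all upstream of its last 300 bases, where none of 251 windows was shared. mt-Co1 shared 51.1% of its windows and all 251 of its last 300 bases, and was yet among the messages with the most reads. The table does not say where in a message its reads lay, so whether sharing accounts for the missing reads was not tested, and windows outside annotated transcripts were not searched.

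**Figure D1:**
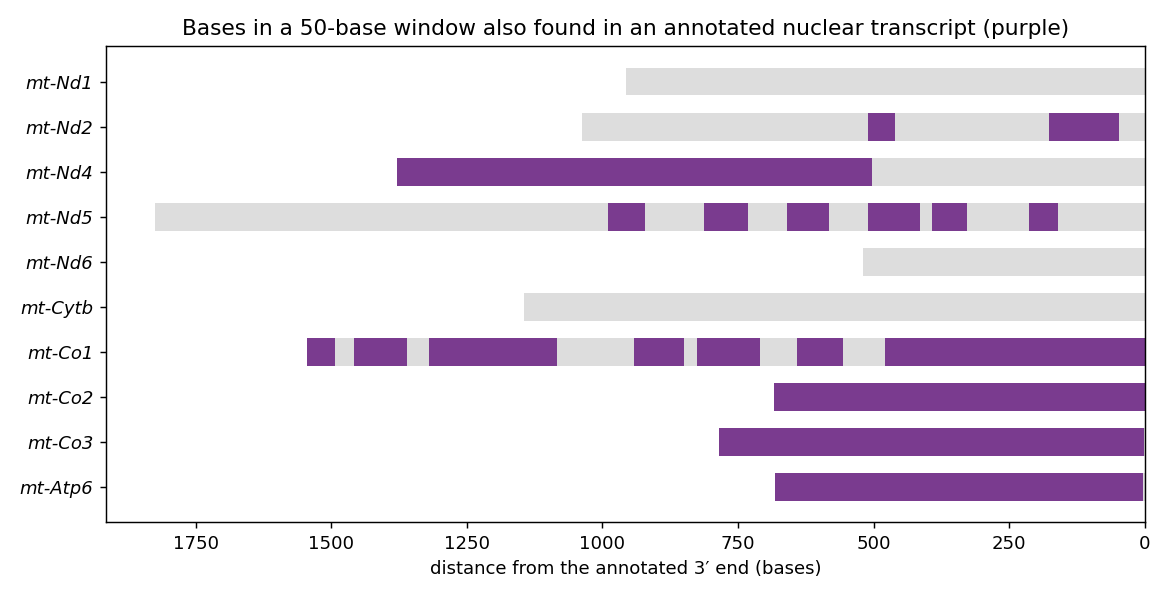
Each bar is 1 message drawn from its annotated 3′ end (right, distance 0) upstream in bases, and purple marks bases in a 50-base window that also occurs exactly in an annotated nuclear transcript. mt-Co2, mt-Co3 and mt-Atp6, which had 0, 2 and 5 reads, are purple along nearly their whole length, mt-Co1 is purple over its last 300 bases, and mt-Nd1, mt-Nd6 and mt-Cytb have no purple.

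In all, 11 annotated nuclear genes in the table aligned to a mitochondrial gene over at least 100 bases at 95% identity or more, 7 of them side by side on chromosome 1, and 9 had any read (1046 reads together). Most of these reads (813) were on Gm13340 (chr2:22588103-22589647, minus strand), a copy of mt-Co1 with 97.6% identity over 1545 bases. It had 45 to 98 reads in WT monosomes and 8 to 9 in WT high polysomes, a log2 change of -4.08 (SE 0.47, adjusted p = 1.03e-09), beside -4.23 for mt-Co1. The other messages of the mitochondrial genome were as thin: mt-Nd3 had 28 reads in all, and mt-Nd4l and mt-Atp8 had 0. Of the 22 mitochondrial tRNA genes, 13 had reads (806 together). Mitochondrial rRNA genes were not analysed here.

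In WT the 10 messages took 1.89% ± 0.113 (SD, n = 3) of counted monosome reads. They took 0.310% ± 0.0129 of the reads of low and 0.117% ± 0.00801 of those of high polysomes. In KO the shares were 1.57% ± 0.201, 0.349% ± 0.0795 and 0.133% ± 0.0394. The mean monosome share was 16.1 times the high polysome share in WT and 11.8 times in KO. The 3 fractions did not overlap in either genotype, while WT and KO overlapped in every fraction. In the polysomes of KO, the library of replicate 1 stood highest, with 0.434% in low polysomes (the others 0.277% and 0.335%) and 0.178% in high polysomes (the others 0.117% and 0.105%). All shares and levels are relative to the other RNA in the same fraction, so less of a message per cell and more of the remaining RNA cannot be told apart.

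All 7 counted messages were lower in polysomes than in monosomes in both genotypes. Levels below are CPM over tested genes, scaled with TMM (trimmed mean of M-values) factors, and changes are log2 differences from limma-voom with p-values adjusted over the 12851 genes tested. Since reads mark 3′ ends, a level is not divided by message length. A message was called changed at an adjusted p under 0.05.

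The drop from monosomes to high polysomes in WT was largest, by estimate, for mt-Nd4, mt-Cytb, mt-Nd1 and mt-Co1. mt-Nd4, a subunit of the proton-pumping arm of complex I, had 3464, 4045 and 3145 CPM in WT monosomes. It had 420, 454 and 321 CPM in low polysomes and 191, 164 and 139 CPM in high polysomes. No library of 1 fraction reached the level of the next, and the high polysome level was 21.7 times lower than the monosome level (log2 change -4.44, SE 0.19, adjusted p = 4.85e-22). mt-Nd1, whose product lies where the membrane arm meets the peripheral arm, had 4086, 3802 and 3655 CPM in WT monosomes. It had 277, 379 and 369 CPM in low polysomes and 239, 213 and 168 CPM in high polysomes. Most of its drop therefore lay between monosomes and low polysomes (log2 change -3.50, SE 0.14), and the step from low to high polysomes was the smallest of the 7 (-0.73, SE 0.15, adjusted p = 6.31e-05).

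mt-Cytb, the only mitochondrially encoded subunit of complex III, had 4413, 4761 and 4154 CPM in WT monosomes. It had 630, 702 and 642 CPM in low polysomes and 232, 196 and 221 CPM in high polysomes. This made the high polysome level 20.5 times lower than that in monosomes (log2 change -4.36, SE 0.11, adjusted p = 5.36e-29). mt-Co1, the catalytic subunit of cytochrome c oxidase, had 5288, 3793 and 4093 CPM in WT monosomes, 807, 614 and 925 in low polysomes and 193, 268 and 240 in high polysomes. Its replicates spread more widely, and the high polysome level was 18.7 times lower (log2 change -4.23, SE 0.22). mt-Nd2, another membrane arm subunit, had 1232 to 1278 CPM in WT monosomes, 196 to 213 in low polysomes and 76.4 to 86.1 in high polysomes, a log2 change of -3.96 (SE 0.13).

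mt-Nd5 and mt-Nd6, the neighbours with overlapping annotated ends, were the least depleted from polysomes in WT. How far their messages run past these ends, outside the counted genes, was not tested. mt-Nd5, a further subunit of the membrane arm, had 1194, 1392 and 1118 CPM in WT monosomes. It kept 633, 485 and 506 CPM in low polysomes and 189, 176 and 170 CPM in high polysomes. The low polysome level was thus 2.29 times lower than the monosome level (log2 change -1.20, SE 0.12), against 4.19 to 11.3 times for the other 6 messages. mt-Nd6, the light-strand message of complex I, had 553, 438 and 497 CPM in WT monosomes, 144, 75.0 and 154 in low polysomes and 47.2, 52.3 and 36.6 in high polysomes. It had the lowest level of the 7 in every library, and its change from monosomes to high polysomes was -3.46 on the log2 scale (SE 0.22). The high polysome level of mt-Nd5 was 6.91 times lower than that in monosomes.

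**Figure D2:**
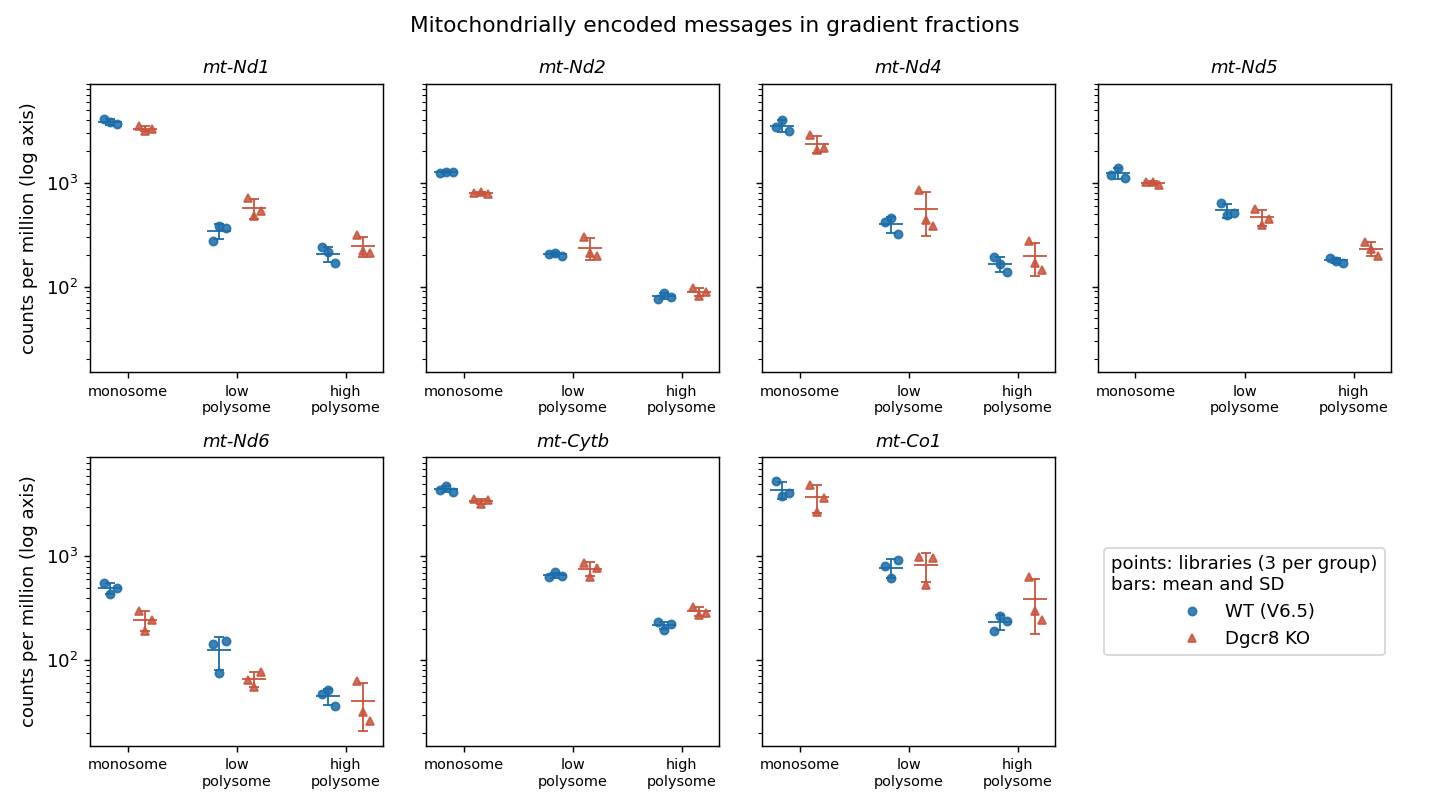
Level of the 7 counted messages (CPM, log axis) in the monosome, low polysome and high polysome fraction, with 1 point per library, 3 libraries per group, and the group mean and SD as bars; circles are WT and triangles Dgcr8 KO. Every message steps down from monosomes to high polysomes in both genotypes, and KO replicate 1 is the highest triangle of several polysome groups, such as 636 CPM of mt-Co1 in high polysomes.

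KO cells showed the same order of fractions. The log2 change from monosomes to high polysomes was -2.12 (mt-Nd5) to -3.77 (mt-Nd1), and that to low polysomes was -1.11 (mt-Nd5) to -2.55 (mt-Nd1). In high polysomes against monosomes, 7 of 7 messages were called lower in both genotypes, where 28% of all tested genes were called lower in WT and 35.5% in KO. In low polysomes against monosomes the call was also 7 of 7 in both, against 19.3% of genes in WT and 22.5% in KO. Libraries of monosomes and high polysomes did not overlap for any of the 7, as for 60.8% of tested genes in WT and 68.6% in KO. Nor did those of monosomes and low polysomes (49.5% of genes in WT and 51.1% in KO). The median change of the 7 messages from monosomes to high polysomes was -4.23 in WT and -3.34 in KO, beside -0.01 and -0.07 over all tested genes. From low to high polysomes, 7 of 7 fell in WT (27.2% of genes did) and in KO (30.1%), although without KO replicate 3 the change of mt-Nd6 in KO was -0.43 (adjusted p = 0.215). Low and high polysome libraries did not overlap for 7 messages in WT (59.3% of genes) and for 5 in KO (58.7%).

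The 3 libraries of a gradient can be set against each other directly. In the ratio of high polysomes to monosomes, WT gradients gave -2.98 to -2.65 for mt-Nd5, above the range of every other message (the nearest, mt-Nd6, gave -3.74 to -3.05). The ranges of mt-Nd4, mt-Cytb, mt-Nd1 and mt-Co1 overlapped each other. In KO, mt-Nd5 gave -2.28 to -1.92 and overlapped mt-Nd6 (-3.20 to -2.23). In low polysomes against monosomes, mt-Nd5 gave -1.52 to -0.91 in WT and -1.38 to -0.86 in KO and overlapped no other message in either. Spearman's rho of message length with the WT change, over 7 messages and as a description only, was 0.04 from monosomes to high polysomes, 0.32 from monosomes to low polysomes and -0.50 from low to high polysomes. In KO it was 0.21, 0.21 and -0.07.

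**Figure D3:**
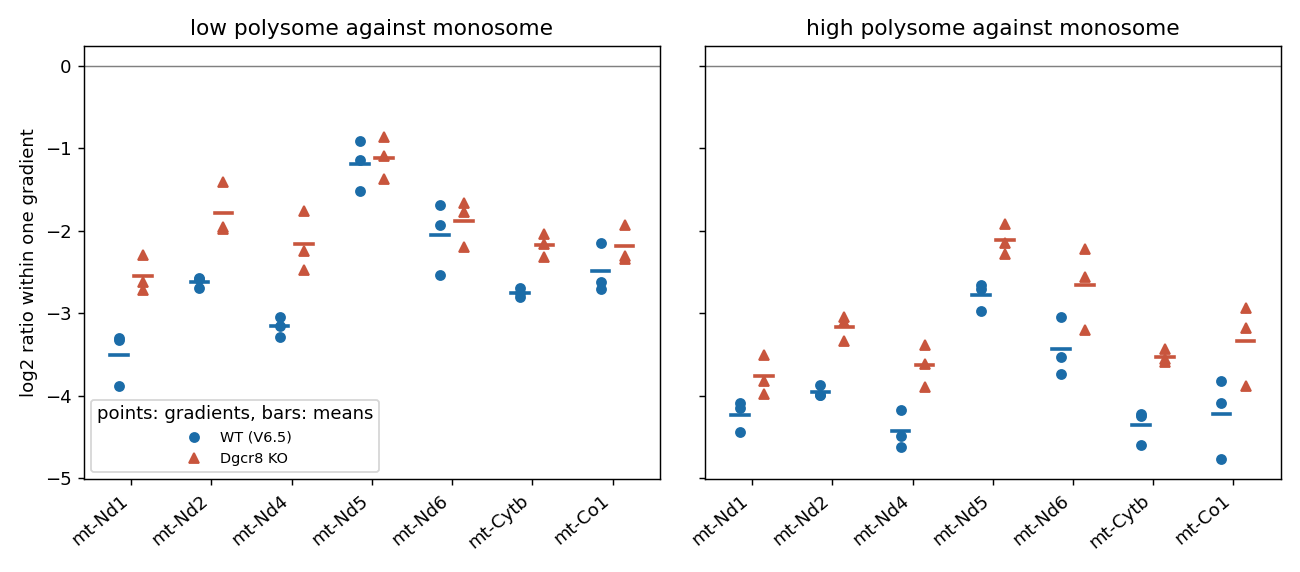
Log2 ratio of the low polysome (left) or high polysome (right) level to the monosome level of the same gradient for each of the 7 counted messages, with 1 point per gradient, 3 per genotype, and a bar at the mean; circles are WT and triangles Dgcr8 KO. All points lie below 0, mt-Nd5 lies highest, and at high polysomes the KO means lie above the WT means for all 7 messages.

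The mix of mitochondrial messages therefore differed between fractions. mt-Nd5 made up 6.42% ± 0.640 (SD, n = 3) of the reads of the 10 messages in WT monosomes, 17.7% ± 2.26 of those in low and 15.9% ± 0.532 of those in high polysomes. In KO it made up 6.79% ± 0.925, 13.5% ± 0.778 and 15.9% ± 2.17. mt-Nd1 went the other way in WT low polysomes, with 11.2% ± 2.11 there against 20.02% ± 0.464 in monosomes. In KO low polysomes mt-Nd1 took 16.6% ± 0.737. The group means of mt-Cytb lay between 19.3% and 23.1% of the reads in all 6 groups. Its single libraries ran from 16.7% (KO high polysomes, replicate 1) to 24.4% (WT monosomes, replicate 2).

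In monosomes, 5 of the 7 messages were lower in KO than in WT and none was higher. Over all tested genes, 19.9% were called lower and 17.5% higher, and the median of the 7 was -0.38 against -0.05 over all genes. mt-Nd6 differed most, with 297, 193 and 246 CPM in KO beside the 438 to 553 CPM of WT. It was 2.05 times lower (log2 change -1.04, SE 0.19, adjusted p = 3.24e-05). mt-Nd2 had 803, 821 and 777 CPM in KO, all below the WT libraries (log2 change -0.65, SE 0.11, adjusted p = 1.52e-05). mt-Nd4 (2871, 2061 and 2161 CPM in KO) was lower by 0.60 on the log2 scale (SE 0.18, adjusted p = 0.00619), and mt-Cytb (3559, 3200 and 3477 CPM) by 0.38 (SE 0.10, adjusted p = 0.00337). mt-Nd5, with 1012, 1023 and 960 CPM, was just past the threshold (-0.30, SE 0.12, adjusted p = 0.0479).

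mt-Nd1 and mt-Co1 gave no call in monosomes. mt-Nd1 had 3522, 3139 and 3294 CPM in KO, none reaching the lowest WT library, with a log2 change of -0.22 (95% interval -0.48 to 0.04, adjusted p = 0.193). mt-Co1 had 4887, 2691 and 3636 CPM, of which the first lay within the WT range and the others below it (-0.27, 95% interval -0.68 to 0.15, adjusted p = 0.321). The KO and WT libraries did not overlap for 6 of the 7 messages, all but mt-Co1, as for 49.2% of tested genes. The count of 5 rested on single gradients: without WT replicate 2 only mt-Nd2 and mt-Nd6 remained, with mt-Nd4 at -0.45 (adjusted p = 0.135), mt-Nd5 at -0.16 (0.457) and mt-Cytb at -0.28 (0.123), and without KO replicate 2 mt-Nd4 (-0.44, adjusted p = 0.0754) and mt-Nd5 (-0.25, 0.142) were lost. mt-Nd5 also lost its call without WT replicate 1 (-0.34, 0.0673) and without KO replicate 3 (-0.27, 0.126), and without KO replicate 1 mt-Co1 was called lower (-0.48, 0.0141). Other settings with all gradients kept also lost mt-Nd5: scaling by library totals alone (-0.20, adjusted p = 0.203), DESeq2 size factors (-0.30, 0.0520) and no filter (-0.24, 0.0887). So did edgeR's quasi-likelihood test (-0.31, 0.0613) and DESeq2's Wald test (-0.31, 0.0661), and the latter also lost mt-Nd4 (-0.59, 0.141).

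In low polysomes the 2 genotypes differed for 2 of the 7 messages, in opposite directions. mt-Nd1 had 715, 476 and 536 CPM in KO, all above the 277 to 379 CPM of WT, and was 1.67 times higher (log2 change 0.74, SE 0.14, adjusted p = 2.73e-05). mt-Nd6 had 64.2, 55.8 and 77.0 CPM in KO, overlapping the lowest WT library at 75.0 CPM, and was lower by 0.85 on the log2 scale (SE 0.21, adjusted p = 7.42e-04). Over all tested genes, 26.1% were called higher and 26.2% lower, and the libraries did not overlap for mt-Nd1 alone of the 7, as for 57% of genes. mt-Nd4 had 845, 435 and 386 CPM in KO, of which only replicate 1 lay above WT (log2 change 0.40, adjusted p = 0.0737). It was called higher without KO replicate 2 (0.51, adjusted p = 0.0434) or KO replicate 3 (0.63, 0.00886). Without KO replicate 2 mt-Cytb was also called higher (0.31, 0.0177), and without KO replicate 1 mt-Nd5 was called lower (-0.35, 0.0160).

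In high polysomes, 3 of the 7 messages were higher in KO and none was lower, against 29.1% and 31.6% of all tested genes. mt-Cytb had 329, 271 and 288 CPM in KO, all above the WT libraries, and was 1.36 times higher (log2 change 0.45, SE 0.12, adjusted p = 0.00149). mt-Nd5 had 267, 231 and 197 CPM, also above all WT libraries (0.36, SE 0.13, adjusted p = 0.0184). mt-Co1 had 636, 296 and 246 CPM, of which the lowest lay within the WT range (0.62, SE 0.23, adjusted p = 0.0207). Only mt-Cytb and mt-Nd5 had libraries that did not overlap, as did 63.6% of tested genes.

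These 3 calls were not equally firm. Without KO replicate 1, mt-Co1 was at 0.22 (adjusted p = 0.301) and mt-Nd5 at 0.26 (0.0929), while mt-Nd6 was called lower (-0.63, 0.0195). mt-Co1 was also lost without WT replicate 1 (0.48, 0.118) and mt-Nd5 without WT replicate 3 (0.32, 0.0809). Scaling by library totals alone, without TMM, shifted the all-gene median here by -0.22, and none of the 3 passed: mt-Cytb was at 0.22 (adjusted p = 0.0976), mt-Co1 at 0.40 (0.143) and mt-Nd5 at 0.14 (0.374). The same scaling turned the uncalled changes of mt-Nd2 and mt-Nd4 from 0.14 to -0.088 and from 0.20 to -0.029. It moved the split of all calls from 3735 higher and 4067 lower to 2901 higher and 5132 lower, and that of the monosomes from 2245 higher and 2552 lower to 2686 and 2041.

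**Figure D4:**
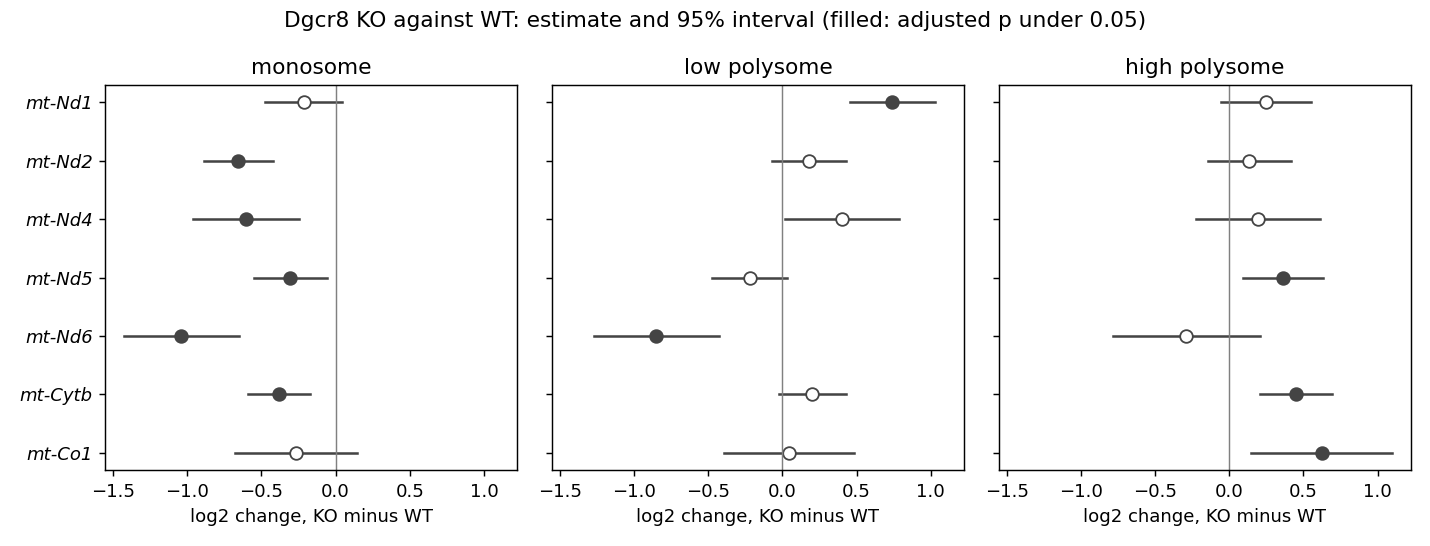
Log2 change of the 7 counted messages in Dgcr8 KO against WT within monosomes, low polysomes and high polysomes, from limma-voom with 3 libraries per group; points are estimates, lines are 95% intervals, and filled points have an adjusted p under 0.05. In monosomes all 7 estimates lie below 0 (-0.22 to -1.04), and in high polysomes 6 lie above 0 and mt-Nd6 lies below.

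The study took the ratio of high polysomes to monosomes as its measure of translation and tested the difference between genotypes as an interaction. For these messages, which cytosolic ribosomes do not translate, the ratio is given as a distribution over the gradient only. It was higher in KO for 5 of the 7 messages: mt-Co1 (log2 difference 0.89, SE 0.31, adjusted p = 0.0278), mt-Cytb (0.83, SE 0.16, adjusted p = 9.97e-05), mt-Nd4 (0.80, SE 0.27, adjusted p = 0.0237), mt-Nd2 (0.79, SE 0.18, adjusted p = 7.79e-04) and mt-Nd5 (0.67, SE 0.18, adjusted p = 0.0047). Of all tested genes, 13% were higher and 15.2% lower. mt-Nd6 (0.75, SE 0.31, adjusted p = 0.0681) and mt-Nd1 (0.46, SE 0.20, adjusted p = 0.0763) had the same sign without a call. With each gradient as a block, which the design supports since the fractions of a gradient come from 1 lysate, both passed (mt-Nd6 0.79, adjusted p = 0.0133, and mt-Nd1 0.46, adjusted p = 0.0233), so that all 7 were called higher.

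Per gradient, the 3 KO ratios lay above the 3 WT ratios for mt-Nd1, mt-Nd2, mt-Nd4, mt-Nd5 and mt-Cytb, as such ratios separated for 41.7% of tested genes. mt-Cytb gave -3.59 to -3.43 in KO and -4.59 to -4.23 in WT. mt-Co1 gave -3.88 to -2.94 in KO and -4.77 to -3.82 in WT, so that 1 KO gradient lay among the WT gradients. The count of 5 fell to 3 without WT replicate 3, with mt-Nd4 (0.76, adjusted p = 0.0694) and mt-Co1 (0.95, 0.0551) lost. It fell to 3 without KO replicate 2, with mt-Nd4 (0.75, 0.0649) and mt-Co1 (0.76, 0.0513) lost. Without WT replicate 2, mt-Nd4 (0.67, 0.151) and mt-Nd5 (0.54, 0.0760) were lost and mt-Nd6 was called (0.92, 0.0341). mt-Nd6 was also called without KO replicate 3 (1.06, 0.0230), and mt-Co1 was lost without WT replicate 1 (0.62, 0.227).

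This comparison depended on the scaling. Under library totals the all-gene median shifted by -0.33, the split of all calls moved from 1671 higher and 1950 lower to 753 and 3178, and 2 of the 7 messages stayed past the threshold, with mt-Nd4 at 0.47 (adjusted p = 0.201), mt-Nd5 at 0.34 (0.160) and mt-Co1 at 0.56 (0.181). All 7 differences stayed above 0 under that scaling.

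The ratio of low polysomes to monosomes was higher in KO for 4 messages: mt-Nd4 (1.004, SE 0.26, adjusted p = 0.00667), mt-Nd1 (0.96, SE 0.19, adjusted p = 4.02e-04), mt-Nd2 (0.84, SE 0.17, adjusted p = 4.41e-04) and mt-Cytb (0.58, SE 0.15, adjusted p = 0.00735). Over all tested genes 3.9% were higher and 7.49% lower, and with library totals 291 genes were higher and 1284 lower instead of 501 and 963. The gradients of these 4 messages did not overlap between genotypes, as for 30.4% of genes. mt-Co1 (0.31, 95% interval -0.29 to 0.92), mt-Nd6 (0.19, -0.38 to 0.76) and mt-Nd5 (0.08, -0.27 to 0.44) gave no call. Without WT replicate 2, mt-Nd4 (0.93, adjusted p = 0.0754) and mt-Cytb (0.50, 0.121) were lost, and without WT replicate 1 mt-Cytb (0.56, 0.0544) was lost.

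From low to high polysomes, the ratio was higher in KO for mt-Nd5 alone (0.58, SE 0.18, adjusted p = 0.0218), where 7.52% of genes were called higher and 10.3% lower. With library totals the call was lost (0.38, adjusted p = 0.132) and the split of all calls went from 967 higher and 1321 lower to 504 and 2244. It was also lost without WT replicate 1 (0.51, 0.111), WT replicate 3 (0.59, 0.0601) or KO replicate 2 (0.51, 0.0678). With each gradient as a block 3 messages were called, mt-Nd5 and mt-Co1 (0.59, adjusted p = 0.0350) higher and mt-Nd1 lower (-0.49, adjusted p = 0.0237). mt-Nd1 was called lower without WT replicate 3 (-0.70, 0.0384) and under library totals (-0.69, 0.0138), and mt-Nd6 higher without WT replicate 2 (1.06, 0.0296). Gradients did not overlap between genotypes for mt-Nd5 and mt-Cytb, as for 34.4% of genes.

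Few of these differences between genotypes were large. With an absolute log2 change over 1 required as well, 1 message was called in monosomes (mt-Nd6, where 18.1% of genes were called), 0 in low polysomes (25% of genes) and 0 in high polysomes (33.1%). Between genotypes the ratio passed that rule for 0 messages from monosomes to high polysomes (15.1% of genes), for mt-Nd4 from monosomes to low polysomes (5.03%) and for 0 from low to high polysomes (5.18%). The mt-Nd4 estimate was at the cutoff (1.004), and its call was lost with DESeq2's Wald test (1.039, adjusted p = 0.110).

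Many nuclear messages for respiratory chain subunits had a lower ratio of high polysomes to monosomes in KO. Of 77 nuclear-encoded subunits of the respiratory chain, all tested, 53 had a lower ratio of high polysomes to monosomes in KO than in WT and 8 a higher one, with a median of -0.83, where 15.2% of all tested genes were lower and 13% higher. The 36 subunits of complex I had 27 lower and 3 higher (median -0.82), the 11 of complex IV 9 lower and 1 higher (median -1.13), the 9 of complex III 6 lower and 2 higher (median -0.91), and the 17 of the ATP synthase 10 lower and 1 higher (median -0.70). Complex II, which has no mitochondrially encoded subunit, had 1 of 4 lower and 1 higher (median -0.55). Of the 8 ESC markers, 6 were lower and 0 higher (median -0.70). Cox7a2, a small subunit of complex IV, was lower by 1.51 on the log2 scale (SE 0.15, adjusted p = 1.03e-09), and Cox4i1, the regulatory subunit that mt-Co1 is assembled with, by 0.76 (SE 0.16, adjusted p = 4.16e-04). The mitochondrial and nuclear medians of this comparison, 0.79 and -0.83, lay on either side of the median of all genes, 0.01.

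**Figure D5:**
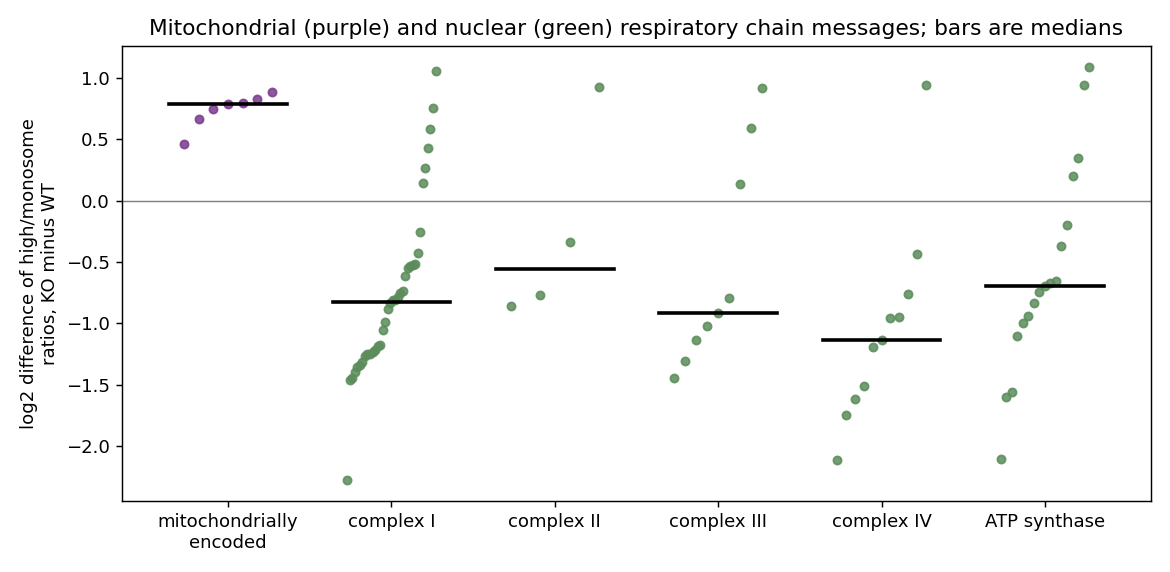
Log2 difference between Dgcr8 KO and WT in the ratio of high polysomes to monosomes (limma-voom interaction) for the 7 counted mitochondrially encoded messages (purple) and the nuclear-encoded subunits of each respiratory chain complex (green), with 1 point per gene, sorted within a column, and a bar at the median. The mitochondrial messages lie at 0.46 to 0.89, and the nuclear complexes have medians of -0.55 to -1.13.

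In WT cells alone, of the 77 nuclear subunits, 50 were higher and 9 lower in low polysomes than in monosomes (median 0.40), against 2296 and 2475 of 12851 tested genes. In high polysomes against monosomes 27 were higher and 33 lower (median -0.15), against 3347 and 3597 of all genes. The 7 mitochondrial messages had medians of -2.62 and -4.23 there. In KO high polysomes 58 of the 77 were lower and 9 higher than in WT (median -0.84), where 31.6% of all genes were lower and 29.1% higher. In monosomes 22 were lower and 15 higher (median -0.10), where 19.9% of all genes were lower and 17.5% higher.

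Nuclear genes that make and keep mitochondrial RNA are read against the same shares of all tested genes, which were 31.6% lower and 29.1% higher in KO high polysomes and 19.9% and 17.5% in KO monosomes. Of 16 tested genes of mitochondrial transcription and DNA maintenance, 9 were lower and 2 higher in KO high polysomes. Tfam, which packages mitochondrial DNA and starts its transcription, was lower by 1.71 (SE 0.14, adjusted p = 1.20e-13), and Polrmt, the mitochondrial RNA polymerase, was higher by 0.92 (SE 0.24, adjusted p = 0.00114). In monosomes 1 of the 16 was lower and none higher, with Tfam at -0.35 (adjusted p = 0.127) and Polrmt at 0.02 (adjusted p = 0.965).

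Of 22 tested genes of mitochondrial RNA processing, polyadenylation and decay, 7 were lower and 6 higher in KO high polysomes, and 6 were lower and 3 higher in KO monosomes. In high polysomes these counts are near the shares of all genes, 31.6% lower and 29.1% higher. Lrpprc and Slirp, partners in a complex that keeps mitochondrial messages stable, were both lower in KO monosomes (Lrpprc -0.52, SE 0.18, adjusted p = 0.0226, and Slirp -0.48, SE 0.13, adjusted p = 0.00411). In high polysomes Slirp was lower (-1.67, SE 0.16, adjusted p = 1.66e-11) and Lrpprc gave no call (0.23, adjusted p = 0.178). Both genes were picked after their values were seen, and a link to the levels of the mitochondrial messages was not tested. Of 13 tested mitochondrial translation factors, 4 were lower and 3 higher in KO high polysomes, and 2 were lower and 1 higher in monosomes, all near or below the shares of all genes.

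RNAs that no ribosome translates were as depleted from polysomes as the mitochondrial messages in some cases. Of 6 tested nuclear noncoding RNAs, 5 were lower in WT high polysomes than in monosomes (median -3.36), among them Malat1 (-4.42, SE 0.16, adjusted p = 2.34e-24), Neat1 (-4.04, SE 0.22, adjusted p = 3.87e-19) and Meg3 (-4.62, SE 0.21, adjusted p = 8.25e-22). In KO, 4 were lower and the median was less negative (-2.87), while Malat1 went the other way (-4.63). Of all tested genes, 28% were lower in WT and 35.5% in KO. The difference of this ratio between genotypes had a median of 0.31 over the 6 RNAs, beside 0.01 over all tested genes. Of the 6, 0 were called higher and 0 lower. It was -0.21 for Malat1 (adjusted p = 0.533), -0.16 for Neat1 (0.743) and 0.49 for Meg3 (0.194). Of 5 tested mitochondrial tRNAs, 2 were lower in WT high polysomes than in monosomes and 3 in KO, on few reads.

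Nuclear genes whose level followed the mean of the 7 messages closely over the 18 libraries included Ppia, the peptidyl-prolyl isomerase cyclophilin A (Pearson's r = 0.981), 1110038B12Rik (0.980), Snhg12 (0.976) and Zfas1 (0.974), among 7444 genes with a mean of 50 counts or more. Ppia has many processed copies in the genome, so its counts are uncertain. Snhg12, Zfas1 and 1110038B12Rik are annotated as noncoding or processed transcripts. 1110038B12Rik had 623 CPM ± 26.3 (SD, n = 3) in WT monosomes, 94.4 ± 13.2 in low and 22.8 ± 0.210 in high polysomes, and in KO 374 ± 70.4, 62.7 ± 3.51 and 19.6 ± 1.05. These libraries share their fractions and depths, so r is a description only. Among the 7 messages themselves r was 0.899 (mt-Nd1 with mt-Nd6) to 0.994 (mt-Cytb with mt-Nd2).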

How the data were processed

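RNA from monosome, low polysome and high polysome fractions of 3 WT and 3 Dgcr8 KO gradients was measured in 18 libraries of single-end 50-base reads. The authors deposited unnormalised read counts for each gene, made with Cutadapt, STAR (mm10, single-locus reads only) and featureCounts, by strand, on GENCODE M14 without rRNA genes; the submitters' processing notes and methods give these. Dropping reads with several positions lowers genes with copies, and no molecular identifiers were stated, so PCR copies are counted and limits on a count of 0 cover counting error only. The 92 spike-in entries (0.000522 to 0.00215% of reads) were left out.

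Counts were filtered (3 CPM or more in at least 3 libraries, leaving 12851 genes) and fitted in limma 3.58.1 (voom, edgeR 4.0.16 TMM factors, R 4.3.3) over all 18 libraries with 12 contrasts, including the interaction that the study used. P-values were adjusted by Benjamini-Hochberg over all tested genes. The code was tested on simulated data. Windows and copies came from GENCODE M21 transcripts (51274 of 51467 genes matched) with BLAST 2.17.0. Gradient log2 ratios used a prior count of 2. The named genes are the 10 messages, Dgcr8, the 5 nuclear genes most correlated with them (1 of which is not reported here), and lists of mitochondrial gene expression, respiratory chain subunits and noncoding RNAs; within lists, the genes given with values were picked after their values were seen. The messages and lists were chosen with earlier results of these data known. Alternatives were library totals, DESeq2 1.42.0 size factors and Wald test, edgeR's quasi-likelihood test, nuclear totals, other filters, a fold threshold, fits by comparison, blocks and each gradient left out.

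Same-numbered fractions of a genotype come from 1 gradient, per the labels' titles and the methods, and this sets the pairing. The deviations of same-gradient libraries from their group means correlated at 0.03 to 0.14 (18 pairs). Across genotypes, libraries with a shared number correlated at 0.0002 to 0.10 (27 pairs). The ranges overlap, so these values cannot decide whether a number shared across genotypes pairs libraries.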

Additional observations from a re-analysis of the deposited data

Results flagged for a closer look

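The change between fractions differed between Dgcr8 KO and WT, by the limma interaction with p-values adjusted over all genes, in 10 cases among the 7 counted messages and 3 ratios. For high polysomes against monosomes these were mt-Co1 (log2 difference 0.89), mt-Cytb (0.83), mt-Nd4 (0.80), mt-Nd2 (0.79) and mt-Nd5 (0.67). For low polysomes against monosomes they were mt-Nd4 (1.004), mt-Nd1 (0.96), mt-Nd2 (0.84) and mt-Cytb (0.58). For high against low polysomes mt-Nd5 (0.58) was the only case in this fit, which did not pair the fractions of a gradient. All 10 were higher in KO. A block for each gradient added mt-Nd6 (0.79) and mt-Nd1 (0.46) for high polysomes against monosomes. For high against low polysomes it added mt-Co1 higher (0.59) and mt-Nd1 lower (-0.49) in KO. The 3 ratios share libraries, so a message that appears in more than 1 of them does not count as repeated evidence.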

How the results depend on the processing

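Counts of called messages between fractions within a genotype stayed at 7 of 7, or within 1.5 times, in every alternative. Between genotypes the count moved as follows, and moves within 1.5 times are not listed. In monosomes (5) it was 3 with DESeq2's Wald test and 1 with an absolute log2 change over 1, in low polysomes (2) it was 0 with that threshold, and in high polysomes (3) it was 0 with that threshold, 0 with library totals and 1 without a filter. For the ratio of high polysomes to monosomes (5) it was 0 with the threshold, 2 with library totals, 3 without a filter and 3 with DESeq2's Wald test. For low polysomes to monosomes (4) it was 1 with the threshold, and for high to low polysomes (1) it was 0 with the threshold and 0 without a filter. Leaving out each gradient gave 2 to 6 in monosomes, 2 to 4 in low polysomes, 2 to 3 in high polysomes, 3 to 6 for high polysomes to monosomes, 2 to 4 for low polysomes to monosomes and 0 to 2 for high to low polysomes.

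With the replicate block by number, the pairing gave 2 calls for high to low polysomes (mt-Nd1 at -0.50) and by gradient 3. The block by number also moved mt-Nd4 in low polysomes past the threshold (0.41, adjusted p = 0.0113), a value that rests on a number shared between genotypes. No other call changed beyond those given for mt-Nd1, mt-Nd6 and mt-Co1.

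The changes that turned sign were all small and uncalled. With library totals they were mt-Nd2 (-0.088) and mt-Nd4 (-0.029) in high polysomes and mt-Nd5 (-0.045) for low polysomes to monosomes, and with a filter of 10 CPM mt-Co1 in low polysomes (-0.0057). Over the gradients left out, KO against WT ranged from -0.48 to 0.021 for mt-Co1 in monosomes, from -0.0044 to 0.31 for mt-Nd2 and from -0.15 to 0.32 for mt-Co1 in low polysomes, and from -0.069 to 0.39 for mt-Nd4 and -0.63 to 0.00090 for mt-Nd6 in high polysomes. For low polysomes to monosomes it ranged from -0.16 to 0.23 for mt-Nd5 and -0.14 to 0.38 for mt-Nd6, and for high to low polysomes from -0.18 to 0.084 for mt-Nd2. The cause was not tested. Library totals also moved the split of all calls in KO from 4136 higher and 4565 lower to 3245 and 5421 between high polysomes and monosomes, and from 3325 and 3867 to 2609 and 4723 between high and low polysomes. The counts of mt-Co2, mt-Co3 and mt-Atp6 are too low to give a change, and 3 gradients per genotype limit the precision of the rest.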
